A study of Homo sapiens with 10 samples.

Results

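The chromatin sites of Rb, the retinoblastoma protein, in OVCAR-3 and Kuramochi cells treated with the CDK2 inhibitor INX-315 were set against each other. The peaks of the 4 INX-315 Rb libraries, 2 per line, were merged wherever they overlapped by at least 1 bp, and each merged region was classed by the libraries that held a peak in it. Of 21463 regions on chromosomes 1 to 22 and X, 9467 were present in all 4 libraries, 1211 were present in both OVCAR-3 libraries and neither Kuramochi library (called OVCAR-3 only), and 614 were present in both Kuramochi libraries and neither OVCAR-3 library (called Kuramochi only). The other 10171 regions had other patterns, 7161 of them in a single library. Class membership is a description of peak lists and carries no test, and absence means that no peak passed the caller's q threshold of 0.05.

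OVCAR-3 and Kuramochi are established human high-grade serous ovarian cancer lines, both labelled wild type here. Cells of each line received 300 nM INX-315 or the DMSO vehicle for 2 days, and Rb was profiled by CUT&RUN, in which an antibody tethers a nuclease that releases the bound DNA fragments. The experiment was performed once, with 2 biological replicates per arm, so the spread between libraries is that of 1 experiment and each line stands for itself alone. The 4 DMSO Rb libraries were not used to form the classes. The mouse IgG2a library of a line, 1 per line and from DMSO cells, was the peak caller's control for both treatments. The peak files hold no expression values, so neither line could be checked against marker genes.

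Under INX-315, OVCAR-3 replicates 1 and 2 held 13010 and 17203 peaks, and Kuramochi replicates 1 and 2 held 15179 and 13363. The ranges overlapped. The means were 15106.5 ± 2965 and 14271 ± 1284 (SD, n = 2 libraries each), and the log2 ratio of 0.08 gave p = 1 in a two-sided exact permutation test whose smallest possible p was 0.333. The genome-wide background against which peaks were called ranged from 0.216 fragments per position in Kuramochi replicate 2 to 0.421 in OVCAR-3 replicate 2, so the libraries differed in depth and weak peaks were the least certain. The values below are fold enrichments, the fragments at a peak's summit relative to the local background, as the peak caller wrote them. The caller adds 1 to both the fragments and the background, which is more than the genome-wide background of any of these libraries. The values are therefore lower than the plain ratio, rise with depth and correct only in part for local background.

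Rb is a pocket protein that binds E2F transcription factors and holds their target genes, many of them for DNA replication and cell division, in a repressed state. Cyclin E with CDK2 phosphorylates Rb in late G1 and releases it from E2F, and loss of that phosphorylation keeps Rb on chromatin. High-grade serous ovarian cancer is a tumour in which the cyclin E and CDK2 axis is often raised, which is why CDK2 inhibitors are studied there.

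Windows of 200 bp around the summit, from promoters picked because they held an E2F match, are shown from the hg38 reference, plus strand, 5′ to 3′. A match to the E2F letters TTTCCCGC, TTTCGCGC, TTTGCCGC or TTTGGCGC (either strand) is in capitals. They are among the highest-ranked promoters with such a match in their class. The first pair was bound in all 4 libraries. The windows of PRXL2B and of the checkpoint adaptor gene CLSPN hold 24 and 12 CpG dinucleotides, against a median of 20 in shared regions.
PRXL2B (chr1:2586517-2586716): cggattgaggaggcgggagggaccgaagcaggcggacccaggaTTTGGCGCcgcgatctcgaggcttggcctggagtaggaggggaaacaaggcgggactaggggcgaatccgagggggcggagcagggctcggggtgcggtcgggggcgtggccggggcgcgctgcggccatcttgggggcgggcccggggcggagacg
CLSPN (chr1:35769794-35769993): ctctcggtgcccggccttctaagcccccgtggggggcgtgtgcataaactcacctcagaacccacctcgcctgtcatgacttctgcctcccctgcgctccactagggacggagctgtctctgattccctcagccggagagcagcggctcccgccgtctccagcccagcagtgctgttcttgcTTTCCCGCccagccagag

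The next promoters were OVCAR-3 only. DMPK encodes the myotonic dystrophy protein kinase, and ADAM29 and GLRA3 share 1 window.
DMPK (chr19:45779528-45779727): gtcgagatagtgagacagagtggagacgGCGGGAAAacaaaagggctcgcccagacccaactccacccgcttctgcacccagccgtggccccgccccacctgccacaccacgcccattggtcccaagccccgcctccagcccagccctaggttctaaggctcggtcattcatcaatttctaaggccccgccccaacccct
AUTS2 (chr7:70595984-70596183): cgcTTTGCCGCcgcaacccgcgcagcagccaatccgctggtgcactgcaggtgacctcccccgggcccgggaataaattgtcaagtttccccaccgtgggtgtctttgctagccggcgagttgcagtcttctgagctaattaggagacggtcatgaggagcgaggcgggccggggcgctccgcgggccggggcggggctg
ADAM29 and GLRA3 (chr4:174829119-174829318): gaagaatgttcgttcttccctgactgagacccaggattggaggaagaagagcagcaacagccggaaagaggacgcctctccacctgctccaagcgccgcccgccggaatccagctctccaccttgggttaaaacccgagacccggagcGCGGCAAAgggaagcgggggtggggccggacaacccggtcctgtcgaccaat

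The last promoters were Kuramochi only. ZNF718 encodes a zinc finger protein, PARP11 an ADP-ribosyltransferase, LTBP4 a latent TGFβ-binding protein and MAJIN a meiotic telomere protein.
ZNF718 (chr4:124539-124738): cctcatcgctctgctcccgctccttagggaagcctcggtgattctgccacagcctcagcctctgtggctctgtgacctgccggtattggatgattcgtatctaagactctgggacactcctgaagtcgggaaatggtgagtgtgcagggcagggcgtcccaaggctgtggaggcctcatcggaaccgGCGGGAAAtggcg
PARP11 (chr12:3873191-3873390): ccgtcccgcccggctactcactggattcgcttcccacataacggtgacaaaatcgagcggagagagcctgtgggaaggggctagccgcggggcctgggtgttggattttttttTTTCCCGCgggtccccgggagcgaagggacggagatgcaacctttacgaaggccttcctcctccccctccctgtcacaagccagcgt
LTBP4 (chr19:40598456-40598655): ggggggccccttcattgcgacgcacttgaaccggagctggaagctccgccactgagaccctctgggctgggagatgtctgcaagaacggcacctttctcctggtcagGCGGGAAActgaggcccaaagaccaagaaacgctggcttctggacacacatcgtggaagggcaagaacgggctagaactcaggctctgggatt
MAJIN (chr11:64972062-64972261): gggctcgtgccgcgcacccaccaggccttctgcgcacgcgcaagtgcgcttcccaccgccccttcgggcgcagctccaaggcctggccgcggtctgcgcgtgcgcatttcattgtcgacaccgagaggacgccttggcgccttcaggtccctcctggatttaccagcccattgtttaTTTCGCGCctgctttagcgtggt

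Most reproducible Rb sites were common to the lines. Of 11790 regions in both OVCAR-3 libraries, 80.3% were in both Kuramochi libraries, 9.43% in 1 and 10.3% in none. Of 11064 regions in both Kuramochi libraries, 85.6% were in both OVCAR-3 libraries, 8.88% in 1 and 5.55% in none. As shares of all regions, the 3 classes made up 44.1% (all 4 libraries), 5.64% (OVCAR-3 only) and 2.86% (Kuramochi only), which are the background rates for every count by class given for regions here. Classes built from 3 libraries were larger. OVCAR-3 only regions numbered 4646 and 2043 without OVCAR-3 replicates 1 and 2 and 2092 without Kuramochi replicate 1. Kuramochi only regions numbered 1566 without OVCAR-3 replicate 2 and 1812 and 2614 without Kuramochi replicates 1 and 2.

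The regions present in all 4 libraries lay mostly at promoters. The line-only regions did so less often, at shares closer to the 73.8% of all 21463 regions. A promoter, taken from 2000 bp upstream to 500 bp downstream of an annotated start site, was overlapped by 95.2% of the shared regions (Wilson 95% interval 94.7 to 95.6), 70.9% of the OVCAR-3 only regions (68.2 to 73.3) and 67.4% of the Kuramochi only regions (63.6 to 71.0). These intervals cover counting error only. Introns without a promoter held 11.5% and 16.8% of the OVCAR-3 only and Kuramochi only regions, 1.47% of the shared ones and 12.4% of all regions.

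Line-only regions were also weaker and less CpG-rich than shared ones. Their lower enrichment follows in part from the rule, since a shared region must pass the threshold in all 4 libraries. The median width was 1241 bp for shared regions, 675 bp for OVCAR-3 only and 565.5 bp for Kuramochi only, but shared regions are merged from peaks of 4 libraries and line-only ones from 2, which widens the shared regions by construction. Median fold enrichment of the OVCAR-3 only regions was 5.80 and 7.82 in OVCAR-3 replicates 1 and 2, against 10.9 and 19.5 for the shared regions in those libraries. The Kuramochi only regions had medians of 6.64 and 5.75 in Kuramochi replicates 1 and 2, against 13.2 and 10.4. Per 200 bp window the median number of CpG dinucleotides was 20 in shared, 15 in OVCAR-3 only and 14 in Kuramochi only regions. All regions together had a median of 16. The median was 7 around 1 start site of each of the 19970 protein-coding genes, the one with the lowest coordinate on either strand. Only 131 of the 1211 OVCAR-3 only regions and 100 of the 614 Kuramochi only regions ranked above the median in both libraries' fold enrichments.

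The DMSO libraries kept the line distinction. OVCAR-3 only regions had a peak in 12.1% and 20.8% of cases in OVCAR-3 DMSO replicates 1 and 2, and in 0.165% and 2.89% in Kuramochi DMSO replicates 1 and 2. Kuramochi only regions had one in 15.1% and 36.8% in the Kuramochi DMSO replicates, and in 0.814% and 1.14% in the OVCAR-3 DMSO replicates. Both libraries of the same line were above both of the other in each class, and both line-only classes were below the shared regions, of which 48.7% to 71.4% were found in a given DMSO library. Thus 74.8% of the OVCAR-3 only and 60.6% of the Kuramochi only regions were in no DMSO library of their own line. The DMSO lists were shorter than the INX-315 ones. They held 6129 and 7928 peaks in OVCAR-3 and 5196 and 8756 in Kuramochi, so absence of a weak region from them is weak evidence.

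Strong line-only regions were mostly present without the drug. Among the 131 OVCAR-3 only regions ranked above the median in both libraries, 77.1% had a peak in an OVCAR-3 DMSO library and 1.53% in a Kuramochi DMSO library. Among the 100 such Kuramochi only regions, 80.0% had a peak in a Kuramochi DMSO library and 2.00% in an OVCAR-3 one. In the whole classes, 25.2% of OVCAR-3 only and 39.4% of Kuramochi only regions had a peak in a DMSO library of their line. With classes taken from 1 OVCAR-3 or 1 Kuramochi library these whole-class shares were lower. They were 8.63% for OVCAR-3 without replicate 1 and 12.5% for Kuramochi without replicate 2. The strong regions were not recomputed in that way.

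**Figure D1:**
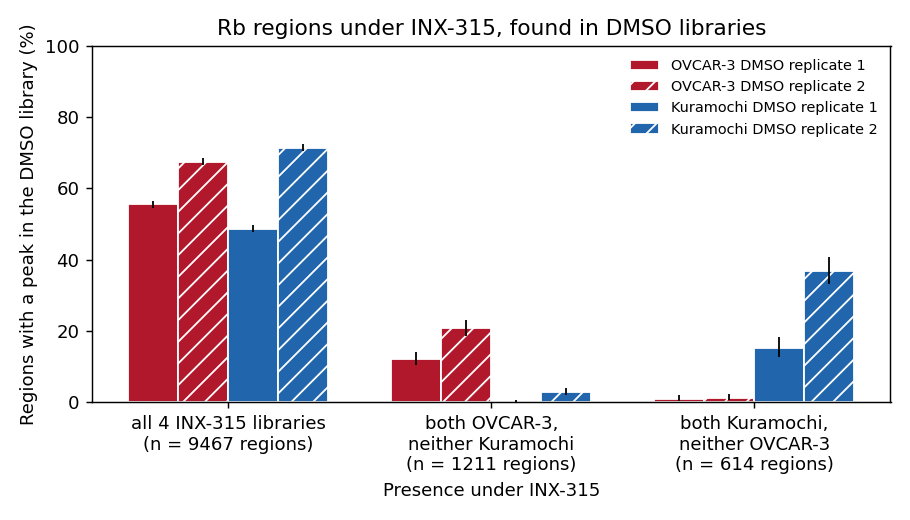
Share of the regions of each INX-315 class, in percent, that had a peak in each of the 4 DMSO Rb libraries; bars are libraries and black lines are Wilson 95% intervals for counting error. The 2 OVCAR-3 DMSO libraries hold 12.1% and 20.8% of the OVCAR-3 only regions and the 2 Kuramochi ones 0.165% and 2.89%, and the order is turned for the Kuramochi only regions.

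The sites with the highest ranks in all 4 libraries included the promoters of HNRNPA0, CSE1L and CLSPN. The promoter of HNRNPA0, an RNA-binding protein gene (chr5:137753169-137755309), reached 89.5 and 156 in OVCAR-3 and 139 and 120 in Kuramochi. CSE1L, which recycles importin alpha, reached 89.4 and 149 in OVCAR-3 and 149 and 101 in Kuramochi. CLSPN reached 86.5 and 97.3 in OVCAR-3 and 129 and 111 in Kuramochi. All 4 libraries ranked these near the head of their lists, and no library lacked them under DMSO, where CLSPN stood at 59.6 and 94.2 in OVCAR-3 and at 70.0 and 123 in Kuramochi.

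The promoters shared by DTL, a substrate receptor of a replication-linked ubiquitin ligase, and INTS7, of KPNB1 (importin beta), of PRXL2B, of OGG1 (8-oxoguanine glycosylase) and of CBX5 with HNRNPA1 completed the strongest set, with values from 59.4 to 155. The 4 strongest shared sites away from promoters lay nearest to LMTK3, GRIN1, RYR1 and SFN, between 1.86 kb and 11.03 kb from a protein-coding start site. All 4 overlapped exons. The site near LMTK3, 5.25 kb from the start site, reached 85.0 and 148 in OVCAR-3 and 63.5 and 52.5 in Kuramochi, where its local background in replicate 2 was 6.22 times the genome-wide one.

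Of the 19970 protein-coding genes, 9667 (48.4%) had a promoter peak in all 4 INX-315 libraries, 560 (2.8%) were OVCAR-3 only and 253 (1.27%) Kuramochi only, and 6301 had none. Without OVCAR-3 replicate 1 or Kuramochi replicate 1 the OVCAR-3 only genes numbered 1268 and 1231, and without OVCAR-3 replicate 2 or Kuramochi replicate 2 the Kuramochi only genes numbered 935 and 511. The strongest OVCAR-3 only promoter was that of STAMBPL1, a deubiquitinase gene (chr10:88879889-88881135), with 26.02 and 59.8 under INX-315 and 8.70 and 14.7 under DMSO in OVCAR-3. ADGRV1, an adhesion receptor gene, had 24.4 and 37.3, and DMPK had 24.8 and 35.1. ESRP1, which encodes an epithelial splicing regulator, had 19.9 and 29.6 under INX-315 and 12.04 and 7.86 under DMSO. None of these had a Kuramochi peak with or without the drug.

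The other OVCAR-3 only promoters with the highest ranks were AKR1E2, C2CD4D, PCDHGC4 (a clustered protocadherin), RCAN2 (a calcineurin regulator), ESPN (an actin-bundling protein), FOXI3 (a forkhead factor), NT5M and LTBP4, with 17.6 to 24.3 in replicate 1 and 26.7 to 30.5 in replicate 2. All 12 were also present in both OVCAR-3 DMSO libraries, at 3.90 to 15.8. The nearest Kuramochi peak lay between 1.63 kb (NT5M) and 586 kb (AKR1E2) away. Both treatments of a line were called against the same IgG2a library.

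The strongest Kuramochi only promoter was ZNF718 (chr4:124240-125513), a zinc finger gene near the end of the short arm, with 110 and 74.0 under INX-315 and 33.2 and 66.0 under DMSO in Kuramochi and no peak in any OVCAR-3 library. Well below it came BOLA1 (a mitochondrial iron-sulfur protein gene), which had 39.1 and 32.2. REC8, a meiotic cohesin subunit gene (chr14:24171642-24173036), had 32.3 and 24.96 under INX-315 and 8.32 and 20.6 under DMSO. PARP11 had 28.7 and 22.4.

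Of the 12 highest-ranked Kuramochi only promoters, 5 belonged to zinc finger genes (ZNF718, ZNF582, ZNF544, ZNF43 and ZNF302, the last with SCGB2B2), all but ZNF718 on chromosome 19. The others were LTBP4, MAJIN, FBXL7 (an F-box protein) and DHRS4L2 (a dehydrogenase), with 17.9 to 27.1 in replicate 1 and 14.6 to 21.5 in replicate 2. MAJIN alone lacked a peak in Kuramochi DMSO replicate 1. No promoter of the 12 had an OVCAR-3 peak under DMSO.

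**Figure D2:**
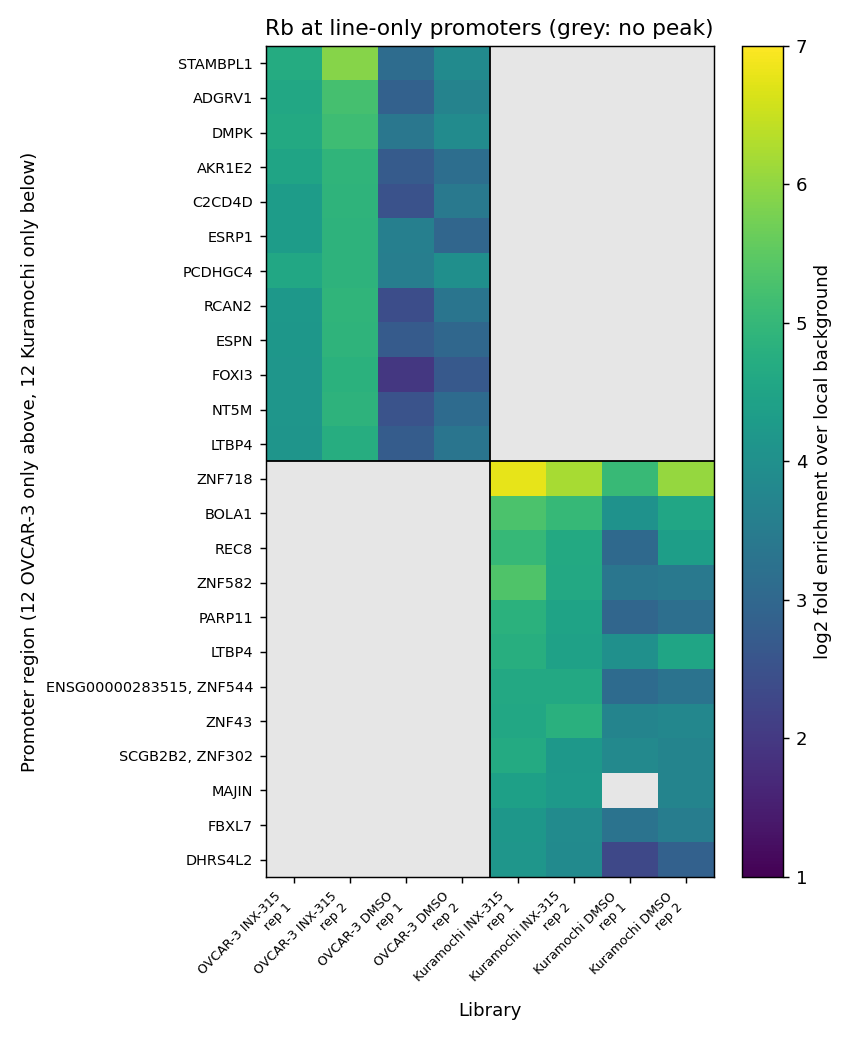
Log2 fold enrichment of Rb at the 12 highest-ranked promoters of each line-only class in the 8 Rb libraries, columns; rows are promoters and grey marks a library without a peak. STAMBPL1 (26.02 and 59.8 before the log) and ZNF718 (110 and 74.0) lead the classes, and the DMSO libraries of the other line are grey throughout.

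Away from promoters, the OVCAR-3 only site with the highest rank lay 4.43 kb from a PLEKHG4B start site (chr5:164441-166495) and was higher under DMSO, at 42.1 and 55.5, than under INX-315, at 31.2 and 28.8. Kuramochi DMSO replicate 2 also held it, at 6.75. A site 2.52 kb from ID2, an inhibitor of basic helix-loop-helix factors, had 14.3 and 25.1, and one 3.92 kb from SFTA3 had 14.2 and 35.3. In Kuramochi, sites near AHRR (25.9 and 29.3), FXYD4 (24.4 and 24.96) and CYP2F1 (38.3 and 19.5) ranked highest, and a site 130 kb from FRG1 (21.5 and 15.3) was absent from all 4 DMSO libraries.

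At LTBP4 each line held Rb at a promoter region where the other had no peak, beside promoter regions held by both lines. This gene was named by the rule in both line-only classes and among the shared regions, and its map was drawn after its values were seen. A region between 4.72 and 6.35 kb after the gene's first start site (chr19:40597608-40599233) was Kuramochi only. It had 27.1 and 21.5 under INX-315 and 16.05 and 23.1 under DMSO. An OVCAR-3 peak ended 0.332 kb from it, in a region present in all 4 libraries (chr19:40596820-40597512). That neighbour stood at 4.56 and 5.15 in OVCAR-3 and 12.3 and 7.65 in Kuramochi under INX-315. A region further into the gene, at a cluster of start sites (chr19:40613284-40615075), was OVCAR-3 only, with 17.6 and 26.7 under INX-315 and 6.69 and 9.99 under DMSO.

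Between the line-only regions lay another region in all 4 libraries (chr19:40601186-40606574), at 8.42 and 12.8 in OVCAR-3 and 65.6 and 46.8 in Kuramochi. Its log2 difference was -2.73 ± 0.23 (SE; limma, adjusted p = 2.79e-07), the largest towards Kuramochi among all shared regions. The genes ARPC1B, FAAP20, NFIC, ZIC1 and ZNF331 also had a region of each line-only class at their promoters, where OVCAR-3 libraries stood at 3.11 to 15.2 and Kuramochi libraries at 4.55 to 14.6, and were picked out after their values were seen.

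**Figure D3:**
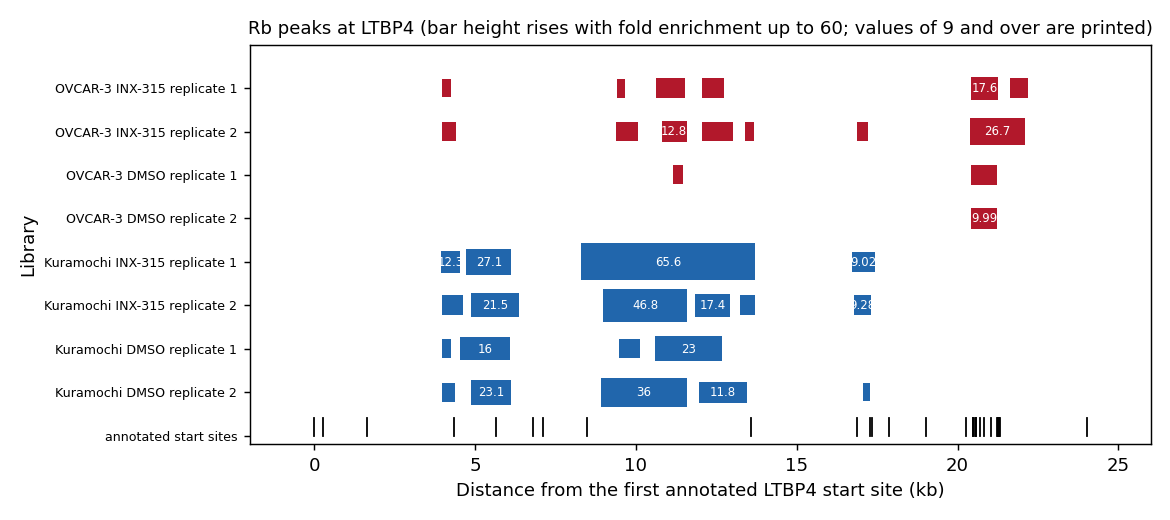
Rb peaks of the 8 Rb libraries at LTBP4, drawn to scale as kb from the first annotated start site, with bar height rising with fold enrichment and black ticks at annotated start sites. OVCAR-3 libraries hold a peak just past 20.4 kb (17.6 and 26.7 under INX-315) where Kuramochi has none, and Kuramochi libraries hold one from 4.72 kb (27.1 and 21.5) where OVCAR-3 has none.

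Epithelial genes were bound in OVCAR-3 only at a share above that of all genes. This list and the other gene lists were chosen with earlier results of these data known, so their shares are descriptions and carry no test. Of 30 genes of epithelial identity, 12 had a promoter peak in all 4 libraries, 8 (26.7%) were OVCAR-3 only and 0 were Kuramochi only, against 2.8% and 1.27% of all genes. The count of 8 was between 7 and 11 under the other settings, where the count of all genes ran from 583 to 1268, against 560. KRT7, an epithelial keratin gene, had 12.1 and 25.3 in OVCAR-3, GRHL2, an epithelial transcription factor gene, had 10.7 and 18.3, and SPINT1, a protease inhibitor gene, had 6.66 and 12.3. These and ESRP1 were also present in both OVCAR-3 DMSO libraries, whereas PKP3, PRSS8 and KRT19 had 3.80 to 7.61 under INX-315 and at most 1 DMSO peak.

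Among the epithelial genes bound in both lines, SPINT2 was higher in OVCAR-3 by 1.27 ± 0.29 (log2, SE; limma, adjusted p = 0.00376) and OVOL2 by 1.07 ± 0.35 (limma, adjusted p = 0.0314). OVOL2 was called in none of the fits that left out a library, at 0.98 to 1.16, and SPINT2 lost its call without OVCAR-3 replicate 2, at 1.07. KLF5, an epithelial and stem cell transcription factor gene, went the other way, with 9.18 and 10.4 in OVCAR-3 and 37.2 and 30.7 in Kuramochi (log2 difference -2.11 ± 0.27, adjusted p = 1.98e-05).

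Of 30 mesenchymal genes, 4 were Kuramochi only (13.3%, against 1.27% of all genes) and 1, COL1A2, was OVCAR-3 only (3.33%, against 2.8%). The 4 were SNAI2, a repressor of epithelial genes, at 25.5 and 14.3, SPARC at 10.1 and 7.16, COL5A1 at 8.45 and 6.87, and the receptor kinase gene AXL at 5.56 and 6.27. Most of these are weak peaks, and only AXL was found in both Kuramochi DMSO libraries. VIM, encoding vimentin, was bound in both lines at 8.40 and 10.8 in OVCAR-3 and 17.7 and 19.1 in Kuramochi (log2 difference -1.26 ± 0.29, limma, adjusted p = 0.00402), whereas COL1A1 and CDH2 were higher in OVCAR-3 by 1.46 ± 0.28 and 1.05 ± 0.28 (limma, adjusted p = 0.000958 and 0.00861). CDH2 lies on chromosome 18 and lost its call with chromosome centring, at 0.46, and without OVCAR-3 replicate 1 or Kuramochi replicate 1, at 0.94 and 0.96. VIM lost its call without Kuramochi replicate 2, at -1.04. The Kuramochi only count was 7 without Kuramochi replicate 2, where that of all genes rose from 253 to 511.

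Of 43 HOX and related genes, HOXA2, HOXA3, HOXA4, HOXB5, HOXB6 and HOXC5 were OVCAR-3 only (6 genes, 14.0%), and HOXD9 was Kuramochi only (2.33%), against 2.8% and 1.27% of all genes. Without OVCAR-3 replicate 2, 5 HOX genes were Kuramochi only, and the count of all genes rose from 253 to 935. With the narrower promoter, from 1000 bp upstream to 100 bp downstream, 3 HOX genes were OVCAR-3 only. HOXA4 was the strongest at 13.7 and 15.6. Of 71 developmental transcription factor genes, 7 were OVCAR-3 only (LMX1A, SOX11, FOXL2, POU4F1, DLX4, FOXA2 and TBX1) and 3 Kuramochi only (GATA4, PAX2 and FOXC2), or 9.86% and 4.23%, in a ratio near that of all genes. FOXL2, a gonadal factor, was the strongest of them at 15.1 and 23.7, and FOXC2 at 14.2 and 9.05.

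Among 38 shared regions of the developmental genes, 10 were higher in OVCAR-3 (26.3%, against 9.34% of all shared regions) and 1 in Kuramochi (2.63%, against 12.7%; limma). Fewer were called higher in OVCAR-3 with any 1 library left out, the fewest without OVCAR-3 replicate 2. Calls over all shared regions fell in those fits too. The median difference of the 38 regions ran from 0.19 to 0.29 in them, against 0.20 with all 4 libraries. With chromosome centring the 10 fell to 6, and the calls towards OVCAR-3 over all shared regions fell from 884 to 747. SIX2 had 35.2 and 48.2 in OVCAR-3 and 13.9 and 10.2 in Kuramochi, a log2 difference of 1.47 ± 0.24 (adjusted p = 0.00022).

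In the serous lineage list no gene of 30 was line-only. Of 14 shared regions 2 were called, 1 in each direction (7.14%, against 9.34% of all shared regions towards OVCAR-3 and 12.7% towards Kuramochi). MECOM, which encodes a zinc finger transcription factor, was higher in OVCAR-3 (29.1 and 60.4 against 15.5 and 10.5, 1.40 ± 0.23, limma, adjusted p = 0.000248), and FOXJ1, the ciliated cell factor gene, was higher in Kuramochi (-1.39 ± 0.30, adjusted p = 0.00208). Of 46 germline genes, 0 were OVCAR-3 only, against 2.8% of all genes. The 2 that were Kuramochi only (4.35%, against 1.27%) were REC8 and MAEL (5.61 and 9.77). CCNH, the cyclin of the CDK-activating kinase, was the 1 line-only gene among 35 CDK, cyclin and Rb family genes (3.73 and 6.38 in OVCAR-3). IFIT5 was the 1 among 35 interferon response genes (5.96 and 5.66 in OVCAR-3). Each made up 2.86% of its list, near the 2.8% of all genes that were OVCAR-3 only.

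Zinc finger genes of chromosome 19, a list formed after the values were seen, were Kuramochi only at a share above that of all genes. Of 249 such genes 28 (11.2%, against 1.27% of all genes) were Kuramochi only and 3 (1.20%, against 2.8%) were OVCAR-3 only. Of 266 ZNF genes on other chromosomes 12 (4.51%) and 7 (2.63%) were. ZNF582 had 40.4 and 24.4, ZNF43 24.2 and 28.0 and ZNF544 24.7 and 24.4 in Kuramochi. Without OVCAR-3 replicate 2 the Kuramochi only count was 50, and that of all genes rose from 253 to 935. In the limma comparison 18 of 107 shared regions of the chromosome 19 genes were higher in Kuramochi (16.8%, near the 12.7% of all shared regions). In OVCAR-3 4 were higher (3.74%, against 9.34%). With each library centred on its own chromosome medians the counts were 7 and 8.

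**Figure D4:**
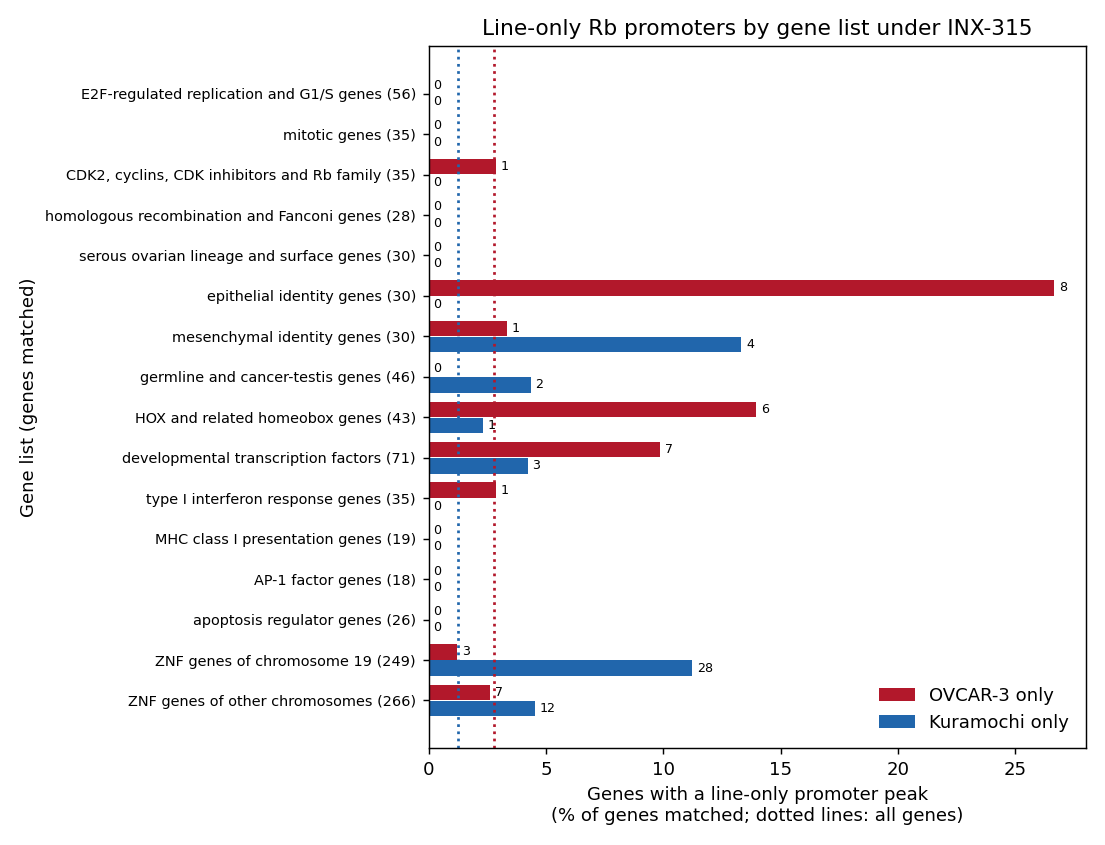
Percentage of the genes of each list whose promoter was bound in both libraries of 1 line and neither of the other, with the number of genes at the bar end and dotted lines at the shares of all 19970 genes (2.8% OVCAR-3 only, 1.27% Kuramochi only). Epithelial genes reach 26.7% OVCAR-3 only, and the replication and mitotic lists hold 0 line-only genes. The lists were chosen with earlier results of these data known.

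Whether Rb differed in amount at the 9467 shared regions was tested with limma on log2 fold enrichment, each library centred on its median. Of these regions, 884 (9.34%) were higher in OVCAR-3 and 1201 (12.7%) higher in Kuramochi at an adjusted p under 0.05, with absolute log2 differences of 0.40 to 3.16 and a median of 1.03. Without Kuramochi replicate 1 or 2 the calls fell to 1082 and 1113. Replicates of a line correlated at 0.875 and 0.888 across these regions and libraries of different lines at 0.673 to 0.689, correlations across regions and not across independent samples. Without centring, which moved the median difference from -0.05 to 0.27, limma called 5 regions, all higher in OVCAR-3, and 968 had an unadjusted p under 0.05. Every direction given here is therefore relative to the median shared region. Calls over all shared regions fell with any 1 library left out, so a fall in a list's calls there is not in itself particular to that list.

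FUT9, a fucosyltransferase gene, was the most different towards OVCAR-3 (chr6:96014931-96016594), with 34.4 and 57.1 in OVCAR-3 and 3.74 and 4.24 in Kuramochi (3.16 ± 0.29, adjusted p = 5.01e-07). It was bound in both OVCAR-3 DMSO libraries and in no Kuramochi DMSO library. TNNI3 (cardiac troponin I), XKR8 (a phospholipid scramblase), MTUS1, ADAMTS1 (a metalloprotease), ENPP5, PTK2B with TRIM35 and NT5DC3 followed, with differences of 2.03 to 2.73. For NT5DC3 the difference was 0.88 on summit fragments over the genome-wide background, and its local background was 6.24 in Kuramochi replicate 1 and 1.00 in OVCAR-3 replicate 1.

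Towards Kuramochi the most different after LTBP4 were ARHGAP39 (6.81 and 8.24 in OVCAR-3, 48.5 and 30.4 in Kuramochi), SPTBN4 (a spectrin), PLEKHF2, JRK with PSCA, TESMIN and KLF5, with log2 differences of -2.11 to -2.67. On summit fragments all kept their direction, at -1.22 (TESMIN) to -3.10 (SPTBN4), and the local background at TESMIN was 5.17 and 5.60 in OVCAR-3 and 1.25 and 1.24 in Kuramochi.

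All 56 genes of the replication and G1/S list, the classical E2F targets, were bound in all 4 libraries, and their Rb signal leaned towards Kuramochi. Of the 60 shared regions at these genes, 23 were higher in Kuramochi (38.3%, against 12.7% of all shared regions) and 4 higher in OVCAR-3 (6.67%, against 9.34%), and the median log2 difference was -0.41, against -0.05 for all. With cyclic loess normalization the counts were 14 and 8 and the median -0.23, and with chromosome centring 18 and 3 and -0.35. Without Kuramochi replicate 1 or 2 fewer were called higher in Kuramochi, as for all shared regions, and the medians were -0.41 and -0.42.

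E2F1 itself had 15.9 and 40.2 in OVCAR-3 and 62.9 and 59.9 in Kuramochi (-1.60 ± 0.21, limma, adjusted p = 2.52e-05). The promoter of LIG1, the replicative DNA ligase gene, had 45.4 and 71.4 against 144 and 95.4 (-1.36 ± 0.15, adjusted p = 6.21e-06). MCM6 of the replicative helicase, the sliding clamp gene PCNA, and the licensing factor genes CDT1 and CDC6 were also higher in Kuramochi, by log2 differences of -1.28, -1.05, -1.17 and -0.96. The lines did not overlap at E2F1, LIG1, MCM6, PCNA or CDC6, while for CDT1 the ranges did, at 7.09 and 12.1 in OVCAR-3 and 24.7 and 11.4 in Kuramochi.

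The 4 replication regions higher in OVCAR-3 included those of MCM3, of GINS1 with ABHD12, and of CHAF1B. CHAF1B, on chromosome 21, lost its call with chromosome centring, where its difference was 0.15, and without OVCAR-3 replicate 1 or either Kuramochi replicate. MCM3, another helicase subunit, had 58.6 and 88.9 in OVCAR-3 and 26.3 and 28.8 in Kuramochi (1.07 ± 0.20, adjusted p = 0.000619). MCM3 and MCM6, subunits of the same helicase, thus stood on opposite sides of the median.

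**Figure D5:**
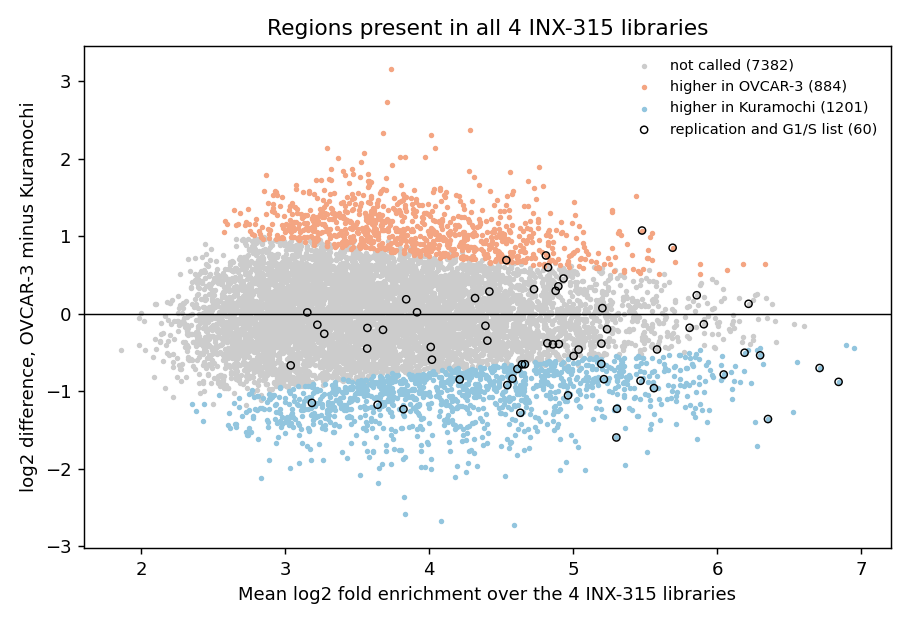
Each of the 9467 shared regions by its mean log2 fold enrichment over the 4 INX-315 libraries (horizontal) and its log2 difference, OVCAR-3 minus Kuramochi, after centring (vertical); colours mark limma calls and open circles the 60 regions of replication and G1/S genes. Of the circles 23 are called below 0 and 4 above.

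Of 34 shared regions of CDKs, cyclins, CDK inhibitors and Rb family genes, 7 (20.6%, against 12.7% of all shared regions) were higher in Kuramochi. They were those of RB1, TFDP1, RBL1, RBBP4, MYBL2, CCND3 and CCNE2. The 1 higher in OVCAR-3 (2.94%, against 9.34%) was that of CDKN2C, a CDK inhibitor gene. Of the 7, only RB1 had libraries that did not overlap before centring, and 3 were called in that direction with cyclic loess, 3 with chromosome centring and 2 without the variance trend. Without OVCAR-3 replicates 1 and 2 the 7 fell to 4 and 3, without Kuramochi replicates 1 and 2 to 3 and 1, and CDKN2C was called in none of these 4 fits. The RB1 promoter had 14.5 and 17.6 in OVCAR-3 and 26.9 and 23.7 in Kuramochi (-0.97 ± 0.25, limma, adjusted p = 0.00845). RB1 and BRCA2 lie on chromosome 13, where the median of all shared regions was -0.40, and with chromosome centring their differences were -0.46 and -0.86.

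Of 28 shared regions of homologous recombination and Fanconi genes, 8 were higher in Kuramochi (28.6%, against 12.7% of all shared regions) and 2 in OVCAR-3 (7.14%, against 9.34%). Without Kuramochi replicate 1 the counts were 4 and 0, and without OVCAR-3 replicate 2 they were 6 and 0. XRCC2, a homologous recombination gene, had 11.6 and 11.3 in OVCAR-3 and 26.9 and 26.003 in Kuramochi (-1.52 ± 0.29, limma, adjusted p = 0.000782), and BRCA2, with ZAR1L, had 16.5 and 24.5 against 43.3 and 40.6 (-1.38 ± 0.22, adjusted p = 0.00017). RBBP8 and DMC1 were higher in OVCAR-3, and both lost that under another setting, with 0.12 for RBBP8 after chromosome centring and -0.03 for DMC1 on summit fragments. Of 35 mitotic regions 6 were higher in Kuramochi (17.1%, near the 12.7% of all shared regions), CCNF the most (-1.24 ± 0.20, limma, adjusted p = 0.00023). The 2 higher in OVCAR-3 were DLGAP5 and TTK (5.71%, against 9.34%), and the median was 0.03. On summit fragments 12 of 33 mitotic regions were higher in Kuramochi and 3 in OVCAR-3, and TTK turned to -0.20. Of the 9176 shared regions in that fit 1690 were higher in Kuramochi and 1132 in OVCAR-3. Without Kuramochi replicates 1 and 2 the 6 fell to 3 and 2.

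Of 24 shared regions of apoptosis genes 6 were higher in Kuramochi (25%, against 12.7% of all shared regions) and 4 in OVCAR-3 (16.7%, against 9.34%). The counts were 4 and 2 without OVCAR-3 replicate 1, 3 and 2 without Kuramochi replicate 1, and 3 and 3 without Kuramochi replicate 2. TP73, with WRAP73, had 7.63 and 10.6 in OVCAR-3 and 36.3 and 22.98 in Kuramochi (-1.999 ± 0.27, limma, adjusted p = 3.32e-05). The 3 called regions of 11 at interferon response genes (PARP9 with DTX3L, IRF1 and RIGI) were all higher in OVCAR-3 (27.3%, against 9.34%), by 1.00 to 1.29. Without the variance trend 2 of the 11 were called higher in OVCAR-3 and 1 in Kuramochi. Only the PARP9 region was still called without OVCAR-3 replicate 1, where IRF1 and RIGI stood at 0.81 and 0.65. IRF1 also lost its call without Kuramochi replicate 1, at 0.71, and RIGI without Kuramochi replicate 2, at 0.67. Of 14 shared regions of AP-1 factor genes 1 was called in each direction (7.14%, against 9.34% of all shared regions towards OVCAR-3 and 12.7% towards Kuramochi). FOS was higher in OVCAR-3 (1.23 ± 0.31, limma, adjusted p = 0.00644) and JUNB higher in Kuramochi (-0.97 ± 0.26, limma, adjusted p = 0.0105). JUNB lost its call with chromosome centring (-0.73) and without OVCAR-3 replicate 1 (-0.69), and neither gene was called without Kuramochi replicate 1 (FOS 0.81, JUNB -0.74). Of 12 regions of MHC class I presentation genes 1 (PSMB10) was higher in OVCAR-3 (8.33%, against 9.34%). The 2 higher in Kuramochi were both at CANX (16.7%, against 12.7%).

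The E2F letters shown above were found in 200 bp windows of 47 of 614 Kuramochi only regions (7.65%, Wilson 95% interval 5.81 to 10.0), 28 of 1211 OVCAR-3 only regions (2.31%, 1.60 to 3.32) and 437 of 9467 shared regions (4.62%, 4.21 to 5.06). Over all 21463 regions the share was 3.65%, and it was 1.93% around the lowest-coordinate start site of each protein-coding gene. Promoter and other regions gave like values, 7.73% and 7.5% for Kuramochi only and 2.45% and 1.98% for OVCAR-3 only. The share was 7.49% in shared regions called higher in Kuramochi, 3.62% in those higher in OVCAR-3 and 4.27% in those not called. A match is a run of letters in a window and not a measured E2F site.

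The share for Kuramochi only regions depended on both of that line's libraries. It was 3.81% without Kuramochi replicate 1 and 4.06% without Kuramochi replicate 2, where a region needed only 1 Kuramochi peak, and 2.92% and 2.34% for OVCAR-3 only regions in those settings. Among the regions ranked above the median in both libraries, 11 of 100 Kuramochi only and 3 of 131 OVCAR-3 only regions had a match (11% and 2.29%). Of the other letters searched, AGATAA, read by GATA factors, was found on either strand in 3.58% of Kuramochi only and 1.82% of OVCAR-3 only windows. All regions gave 2.73%, and the lowest-coordinate start site of each protein-coding gene 6.31%. The AP-1 letters TGACTCA, searched on both strands, were found in 1.79% and 2.56%, with 2.19% in all regions and 2.74% around those start sites.

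Line-only regions were spread unevenly over chromosomes. OVCAR-3 only regions made up 13.6% of the regions of chromosome 18, 12.5% of X and 9.21% of 21, against 5.64% of all regions, and Kuramochi only regions made up 5.74% of chromosome 19 and 4.39% of 13, against 2.86%. The shared regions moved the same way, with median log2 differences of 0.51, 0.33 and 0.37 on chromosomes 18, X and 21 and of -0.27 and -0.40 on 19 and 13. On chromosome 21 the OVCAR-3 libraries had median local backgrounds of 2.07 and 2.03 times the genome-wide level, against 1.20 and 1.22 for Kuramochi, and on chromosome 8, where the median difference was -0.33, it was 1.56 and 1.58 against 2.50 and 2.49. On chromosome 18 and X it was 1.13 to 1.16 in OVCAR-3 and 1.00 in Kuramochi. The files hold no copy number, and the part of copy number in these differences was not tested. With chromosome centring limma called 747 regions higher in OVCAR-3 and 990 higher in Kuramochi.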

How the data were processed

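Rb CUT&RUN peaks from 2 lines, 2 treatments and 2 biological replicates, with 1 IgG2a library per line, were analysed. The authors trimmed reads with BBDuk, aligned them to hg38 with Bowtie2 2.3.4.1, removed mitochondrial and blacklisted reads, kept duplicates, and called peaks per library with MACS2 2.2.7.1 at a q of 0.05 against the line's IgG2a library. The deposited columns used were the fold enrichment, the significance on the −log10 scale (both the p-value and its adjusted q-value) and the summit position. Fold enrichment is a ratio to local background with 1 added to both parts. The deposited score column entered no result. Summit fragments and backgrounds were recovered from fold enrichment and −log10 p within a relative tolerance of 3e-05. This succeeded for 98.6% to 99.9% of the INX-315 peaks with a −log10 p under 290. Stronger peaks were not inverted, so regions whose strongest peak was of that kind were left out of the fit on summit fragments. That fit held 9176 of the 9467 shared regions. Read counts per region were not used here, so the study's count test in DiffBind was replaced by limma on log2 fold enrichment.

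Peaks on chromosomes 1 to 22 and X were merged at 1 bp of overlap. Promoters came from GENCODE release 44. Limma 3.58.1 (R 4.3.3) used a variance trend and Benjamini-Hochberg adjustment over 9467 regions, and was tested on simulated data. A difference over 4 libraries measures only the spread between these libraries of 1 experiment. Other steps used Python 3.11.15, pandas 2.3.3, numpy 2.4.6, scipy 1.17.1, pysam 0.24.0 and samtools 1.23.1, and matplotlib 3.10.9 drew the figures. Intervals are Wilson 95% intervals for counting error only.

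Named regions were the 8 promoter and 4 other shared regions with the highest lowest percentile rank of fold enrichment, the 12 protein-coding promoter and 6 other regions of each line-only class, and the 8 called protein-coding promoters with the largest difference in each direction and no overlap between lines. From each gene list came the members that were line-only or called, all if 6 or fewer and otherwise the 6 with the highest ranks, to which a few others were added after their values were seen. Members and lists were chosen with earlier results of these data known. Alternatives covered the q threshold, equal list lengths, merging, the promoter and motif windows, normalization, the replicate block and leaving out each library. Chromosome centring, the motif shares without ZNF promoters, and the motif, DMSO and promoter shares under several class definitions were added after seeing the data. Results for a few genes that these rules named are not reported here.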

Additional observations from a re-analysis of the deposited data

How the results depend on the processing

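Classes rest on thresholded peak lists, so absence from the shallowest library, Kuramochi replicate 2, is the weakest evidence, and with 2 libraries per line a lone library left in a fit is assumed to vary like the others. The log2 ratio of peak numbers ran from -0.13 to 0.27 when 1 library was left out, turning to -0.13 without OVCAR-3 replicate 2 and -0.0069 without Kuramochi replicate 2. Leaving out 1 library gave 1456 to 4646 OVCAR-3 only and 660 to 2614 Kuramochi only regions, and 936 Kuramochi only regions were found when summits within 250 bp counted as shared. With 1 library left out, promoter shares ran from 94.3% to 94.98% (shared), 54.1% to 77.7% (OVCAR-3 only) and 47.4% to 78.0% (Kuramochi only). For the line-only classes, OVCAR-3 first, they were 74.8% and 74.3% at a −log10 q of at least 3 and 75.8% and 74.4% with equal list lengths. With the narrower promoter the 3 shares were 94.1%, 65.2% and 62.2%. Shared regions lay at promoters more often than either line-only class in each of these settings.

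The E2F share in windows of 100 bp was 1.87% (shared), 0.826% (OVCAR-3 only) and 3.58% (Kuramochi only), and leaving out 1 library gave 3.81% to 7.73% for Kuramochi only regions. Presence in any OVCAR-3 DMSO library was 69.5% for shared regions at a −log10 q of at least 3. With equal list lengths it was 75.5% (shared), 32.3% (OVCAR-3 only) and 3.98% (Kuramochi only). Leaving out 1 library gave 68.1% to 73.1%, 8.63% to 28.7% and 0.918% to 8.75%. Presence in any Kuramochi DMSO library was 71.0% (shared) and 34.9% (Kuramochi only) at a −log10 q of at least 3 and 76.1% (shared) with equal list lengths. Leaving out 1 library gave 69.1% to 73.9% (shared), 1.87% to 7.79% (OVCAR-3 only) and 12.5% to 40.0% (Kuramochi only). Genes that were Kuramochi only numbered 386 with equal list lengths, and leaving out 1 library gave 273 to 935 Kuramochi only and 609 to 1268 OVCAR-3 only genes.

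Without centring limma called 5 regions, 5 higher in OVCAR-3 and 0 in Kuramochi. Leaving out 1 library gave 1082 to 1671 calls, 511 to 651 higher in OVCAR-3 and 566 to 1071 in Kuramochi. On summit fragments 2 named regions changed direction, DMC1 (-0.028) and TTK (-0.20). The cause of these changes was not tested.

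Replicate numbers did not pair the libraries, since deviations of same-numbered libraries from their line's mean correlated at -0.0389. With the replicate number as a block limma called 2266 regions, 975 higher in OVCAR-3 and 1291 in Kuramochi, 2076 of them among the 2085 called without the block.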
